A study of Mus musculus with 6 samples.

Results

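The 10 genes described here encode a TGF-β ligand (*Tgfb1*), its receptors (*Tgfbr1*, *Tgfbr2* and *Tgfbr3*), the SMAD proteins that carry its signal (*Smad2*, *Smad3* and *Smad4*) and proteins that restrain it (*Smad7*, *Ski* and *Skil*). They were taken by gene name from a table of 17320 genes measured by RNA sequencing, and all 10 were found and tested. The choice was made with earlier results of these data known. The libraries came from peritoneal cells (PC) of mice, kept for 9 days in medium with SCF (the ligand of the receptor tyrosine kinase KIT) and IL-3, a culture that favours mast cells, and all 6 libraries shared this treatment. There were 3 libraries of *Mcemp1*+/+ PC (replicates 1, 2 and 3) and 3 labelled *Mcemp1*-/- PC (replicates 4, 5 and 6). *Mcemp1* encodes a membrane protein of mast cells, and the knockout mice, made with CRISPR-Cas9, carry a small frameshifting deletion in exon 1 in all cells. The sources used here give neither the age of the mice nor whether the libraries came from separate mice or cultures, so p-values here reflect no more than the spread among 6 libraries and part of it may be technical.

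TGF-β is secreted in a latent form, and once released it binds the type II receptor TGFBR2, which phosphorylates the type I receptor TGFBR1. The activated type I receptor phosphorylates SMAD2 and SMAD3, which join SMAD4 and enter the nucleus to control transcription. Betaglycan, encoded by *Tgfbr3*, is a co-receptor with no kinase of its own that presents ligand to the signaling receptors. SMAD7 blocks the activated type I receptor, and SKI and its relative SKIL (SnoN) bind SMAD complexes and recruit co-repressors. In cultured mouse mast cells, TGF-β1 is known for inducing the proteases of mucosal mast cells, *Mcpt1* and *Mcpt2*.

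The libraries did not separate fully by label, which touches every value below. Replicates 4 and 5 had a correlation of 0.99 across genes (log2 scale), whereas replicate 6, although labelled *Mcemp1*-/-, had 0.90 and 0.88 with these and 0.98 with both *Mcemp1*+/+ replicate 1 and replicate 3. *Mcemp1*+/+ replicate 2 also stood apart, at 0.89 and 0.88 with replicates 1 and 3 of its own group. It had 0.82, 0.79 and 0.87 with replicates 4, 5 and 6. *Mcemp1* itself had 9.80, 7.68 and 16.9 normalized counts across replicates 1, 2 and 3 but 0.201, 0.0849 and 4.23 across replicates 4, 5 and 6 (log2 fold change -3.22, SE 0.85, limma adjusted p = 0.15). In multiples of the lowest value of the library, *Mcemp1* stood at 3.0 and 2.0 in replicates 4 and 5 and at 105.0 in replicate 6. The study reports the loss of MCEMP1 as protein in the lungs of the knockout mice, which transcript levels do not measure. Replicate 6 kept a transcript that was nearly lost in the other 2 libraries with the same label, and whether the label holds was not tested. Every direction given below for all 3 libraries labelled *Mcemp1*-/- rests on that label. The defining mast cell transcript *Kit* was present in every library, at 1700 to 1800 in *Mcemp1*+/+ PC and at 3265, 3221 and 1827 in replicates 4, 5 and 6. Markers of other cells differed too. The 8 eosinophil markers summed to 52.2 to 140 across *Mcemp1*+/+ PC and to 10.6, 11.2 and 12.8 for replicates 4, 5 and 6. Of the 7 tested, 5 were lower in every library labelled *Mcemp1*-/- than in every *Mcemp1*+/+ library, against 14.8% of all genes. The 15 neutrophil precursor markers summed to 8838 to 14723 across *Mcemp1*+/+ PC, to 488 and 353 for replicates 4 and 5, and to 13323 for replicate 6. For 12 macrophage markers found of 13 listed, the sums were 587 to 1161, 30.1 and 19.9, and 1033, respectively. *Lyz2* alone was 892 of the macrophage sum for replicate 6. Of the 10 macrophage markers tested, 4 were lower in every library labelled *Mcemp1*-/- than in every *Mcemp1*+/+ library, against 14.8% of all genes. *Elane* was 0.201 and 0.127 in replicates 4 and 5, but not every listed marker was lost there. The neutrophil precursor marker *Ctsg* stayed at 436 and 346 (*Mcemp1*+/+ range 424 to 557, replicate 6 at 654). The macrophage marker *Cd163* reached 9.98 and 13.5 (*Mcemp1*+/+ range 7.75 to 9.77, replicate 6 at 6.18). Without replicate 6, 13 of 15 neutrophil precursor markers and 9 of 10 macrophage markers were lower (limma adjusted p under 0.05). No gene had a value of 0 in any library, so a value above 0 does not show that such cells were present. In *Mcemp1*+/+ replicate 2, small nucleolar and small nuclear RNA genes summed to 35265, against 24.8 to 29.1 in the other libraries. Fewer cells of a type and less RNA per cell cannot be told apart in such bulk libraries.

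The values are normalized counts close to CPM (counts per 1 M reads), with library totals of 932999 to 989051. Fold changes are from limma on log2(value + 0.479), which understates the change of low genes, with adjusted p-values over all 13413 genes whose mean was 1 or more. With all 6 libraries 0 of the 10 genes passed an adjusted p under 0.05 in limma in either direction, as against 0.0149% of all genes that were higher and 0.0596% that were lower. At an unadjusted p under 0.05, 5 of the 10 were higher and 2 lower, against 11.6% and 13.8% of all genes. Every library labelled *Mcemp1*-/- lay above every *Mcemp1*+/+ library for 4 of the 10 (*Tgfbr1*, *Tgfbr2*, *Smad7* and *Skil*) and below for 2 (*Tgfbr3* and *Smad3*), against 14.8% of all genes in each direction. Without the library labelled *Mcemp1*-/- replicate 6, 8 were higher and 2 lower (adjusted p = 4.0e-05 to 0.032), against 19.5% and 22.5% of all genes.

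**Figure D1:**
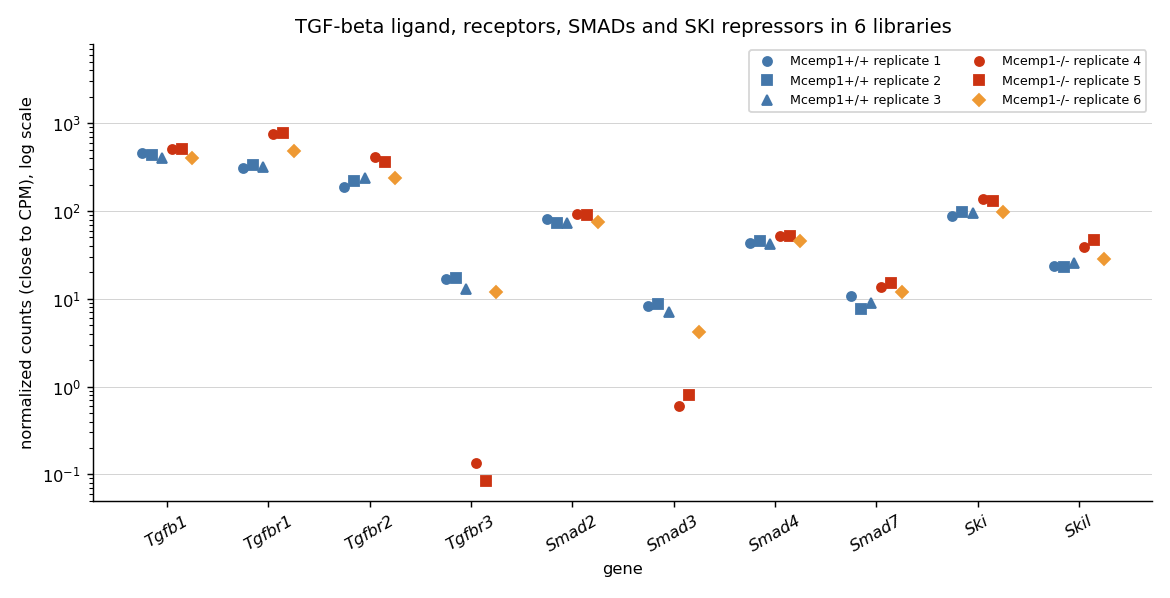
Normalized counts (close to CPM, log axis) of the 10 genes in each of the 6 libraries, 1 point per library, with *Mcemp1*+/+ replicates in blue, *Mcemp1*-/- replicates 4 and 5 in red and replicate 6 in orange. *Tgfbr1* stands at 310 to 332 in blue and at 750 and 765 in red with replicate 6 at 485, and *Tgfbr3* is the gene with the lowest points, at 0.134 and 0.0849 in replicates 4 and 5.

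The promoters of *Tgfbr1*, *Tgfbr2* and *Smad3* are shown because these genes carry the main contrast below, a type I and a type II receptor that lay higher and a receptor-regulated SMAD that lay lower in all 3 libraries labelled *Mcemp1*-/-. Each sequence is the 250 bases before the gene's start in RefSeq (GRCm38.p6, the assembly also called mm10), written 5′ to 3′ on the gene's own strand, with CpG dinucleotides in capitals.
Tgfbr1, chr4:47352972-47353221, plus strand: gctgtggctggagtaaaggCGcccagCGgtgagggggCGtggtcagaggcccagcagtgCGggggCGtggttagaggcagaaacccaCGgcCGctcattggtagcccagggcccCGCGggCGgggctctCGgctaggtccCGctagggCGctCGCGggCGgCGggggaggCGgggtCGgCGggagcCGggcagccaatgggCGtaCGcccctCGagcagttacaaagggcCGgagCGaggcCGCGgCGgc
Tgfbr2, chr9:116175364-116175613, minus strand: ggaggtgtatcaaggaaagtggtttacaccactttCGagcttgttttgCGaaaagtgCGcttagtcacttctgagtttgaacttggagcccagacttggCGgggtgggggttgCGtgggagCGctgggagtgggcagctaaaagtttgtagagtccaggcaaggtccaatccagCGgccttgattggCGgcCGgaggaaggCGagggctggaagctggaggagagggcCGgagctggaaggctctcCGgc
Smad3, chr9:63757995-63758244, minus strand: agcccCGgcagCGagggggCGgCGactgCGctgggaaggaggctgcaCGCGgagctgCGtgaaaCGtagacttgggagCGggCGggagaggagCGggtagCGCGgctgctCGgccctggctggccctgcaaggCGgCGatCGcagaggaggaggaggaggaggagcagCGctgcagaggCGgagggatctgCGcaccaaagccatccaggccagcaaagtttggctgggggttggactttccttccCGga
The *Tgfbr1* window held 29 CpG at 74.8% GC, the *Smad3* window 22 CpG at 69.2% GC and the *Tgfbr2* window 12 CpG at 58.4% GC. Over 32851 promoter windows of this length the median was 6 CpG at 52.4% GC, and 17.9% held at least 20 CpG, as did *Tgfbr1* and *Smad3*. The gene that was higher in *Mcemp1*-/- PC by the most and one of the lower genes thus both had CpG-rich windows at the gene start. *Tgfbr1* has a further start site, 32994 bases from the gene start, whose window held 3 CpG at 52.8% GC. On both strands, none of the 3 windows shown held the palindromic SMAD element GTCTAGAC (0.167% of all windows), the CAGA box core CAGACA (17.1%) or the AP-1 site TGANTCA (6.75%), which says only that these letters are not in these bases. The window at the further *Tgfbr1* start site held CAGACA at position -203 from that site. A window was used for 5 of the 10 genes.

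The ligand gene *Tgfb1* (chromosome 7, 25687002 to 25705077, plus strand) was 457, 431 and 397 in *Mcemp1*+/+ PC and 516, 513 and 406 in *Mcemp1*-/- PC. Replicates 4 and 5 were above all *Mcemp1*+/+ libraries, but replicate 6 lay below 2 of them, so the groups overlapped. Its log2 fold change of 0.15 (SE 0.12, limma adjusted p = 0.41) was the smallest of the 10, and it was 0.27 without replicate 6 (adjusted p = 0.024).

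*Tgfbr1* (chromosome 4, 47353222 to 47414931, plus strand), which encodes the type I receptor kinase, was 310, 332 and 318 in *Mcemp1*+/+ replicates 1, 2 and 3 and 750, 765 and 485 in *Mcemp1*-/- replicates 4, 5 and 6. The groups did not overlap, and replicate 6 stood apart from both its group and the *Mcemp1*+/+ libraries. The mean of replicates 4 and 5 was 2.37-fold and replicate 6 was 1.52-fold the *Mcemp1*+/+ mean. This gave a log2 fold change of 1.03 (SE 0.18, limma adjusted p = 0.14), which was 1.24 once replicate 6 was left out (SE 0.05, adjusted p = 4.8e-05). *Tgfbr1* also belongs to gene groups that the study drew from these same libraries, so its direction here is not independent of that choice.

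*Tgfbr2* (chromosome 9, 116084293 to 116175360, minus strand), the type II receptor that binds the ligand first, was 190, 217 and 236 in *Mcemp1*+/+ PC and 412, 361 and 241 in *Mcemp1*-/- PC. The separation was narrow, because replicate 6 exceeded *Mcemp1*+/+ replicate 3 by little. Its log2 fold change was 0.63 (SE 0.21, limma adjusted p = 0.16), and 0.85 without replicate 6 (SE 0.11, adjusted p = 0.0016).

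The co-receptor gene *Tgfbr3* (chromosome 5, 107106570 to 107289629, minus strand) had the opposite sign, at 16.9, 17.2 and 13.0 in *Mcemp1*+/+ PC against 0.134, 0.0849 and 11.9 in *Mcemp1*-/- PC. Replicates 4 and 5 were each at 2.0 times the lowest value of their library, while replicate 6 was just below the *Mcemp1*+/+ range. The log2 fold change of -3.31 (SE 1.21, adjusted p = 0.18) depended on the pseudocount, at -4.31 with 0.1 CPM and -2.19 with 2 CPM, and it was -4.77 without replicate 6 (adjusted p = 4.0e-05), so its size is not well set. The sums of the neutrophil precursor and macrophage markers were low in the same 2 libraries and not in replicate 6. *Lyz2* made up most of the macrophage sum there, and 4 of the 10 macrophage markers tested were lower in replicate 6 too. The part of such cells in this result was not tested. In GENCODE vM21, *Tgfbr3* shares 297 exon bases with *Gm43422*, and the other genes share none with any gene.

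Of the receptor-regulated SMADs, *Smad2* (chromosome 18, 76241580 to 76310963, plus strand) was 81.2, 73.2 and 72.5 in *Mcemp1*+/+ PC and 91.9, 89.4 and 75.8 in *Mcemp1*-/- PC. Replicate 6 lay within the *Mcemp1*+/+ range. *Smad2* had a log2 fold change of 0.18 (SE 0.10, limma adjusted p = 0.27).

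*Smad3* (chromosome 9, 63646767 to 63757994, minus strand) was 8.20, 8.75 and 7.06 in *Mcemp1*+/+ PC and 0.603, 0.807 and 4.23 in *Mcemp1*-/- PC. All 3 libraries labelled *Mcemp1*-/- were lower, and replicate 6 lay between the other *Mcemp1*-/- libraries and the *Mcemp1*+/+ range. The *Mcemp1*+/+ mean was 11.4-fold that of replicates 4 and 5, and replicate 6 was at 0.529 of the *Mcemp1*+/+ mean. The log2 fold change was -2.18 (SE 0.57, adjusted p = 0.15), and -2.84 without replicate 6 (SE 0.18, adjusted p = 1.6e-04).

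The common partner *Smad4* (chromosome 18, 73639009 to 73703780, minus strand) was 43.4, 46.0 and 41.9 in *Mcemp1*+/+ PC and 51.6, 51.6 and 45.2 in *Mcemp1*-/- PC. As with *Smad2*, replicates 4 and 5 were above the *Mcemp1*+/+ libraries and replicate 6 within them (log2 fold change 0.17, SE 0.08, adjusted p = 0.23). Without replicate 6, *Smad2* and *Smad4* were higher by 0.26 and 0.24 (adjusted p = 0.026 and 0.032).

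The inhibitory SMAD gene *Smad7* (chromosome 18, 75367529 to 75395935, plus strand) was 10.7, 7.57 and 9.06 in *Mcemp1*+/+ PC and 13.7, 15.1 and 12.01 in *Mcemp1*-/- PC. The groups did not overlap, and replicate 6 was 1.32-fold the *Mcemp1*+/+ mean. This was a log2 fold change of 0.56 (SE 0.16, limma adjusted p = 0.15), or 0.64 without replicate 6 (adjusted p = 0.021).

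*Skil* (chromosome 3, 31095058 to 31122577, plus strand) was 23.6, 22.8 and 25.6 in *Mcemp1*+/+ PC and 38.8, 46.4 and 28.1 in *Mcemp1*-/- PC, without overlap. The log2 fold change was 0.62 (SE 0.19, adjusted p = 0.16), and 0.81 without replicate 6 (adjusted p = 0.0016). *Ski* (chromosome 4, 155154075 to 155222592, minus strand) was 88.5, 98.3 and 95.3 in *Mcemp1*+/+ PC and 136, 131 and 96.8 in *Mcemp1*-/- PC. Here replicate 6 fell inside the *Mcemp1*+/+ range, with a log2 fold change of 0.35 (SE 0.14, adjusted p = 0.19) and of 0.51 without replicate 6 (adjusted p = 0.0017). Each of the 3 restraining genes was therefore highest in replicates 4 and 5.

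**Figure D2:**
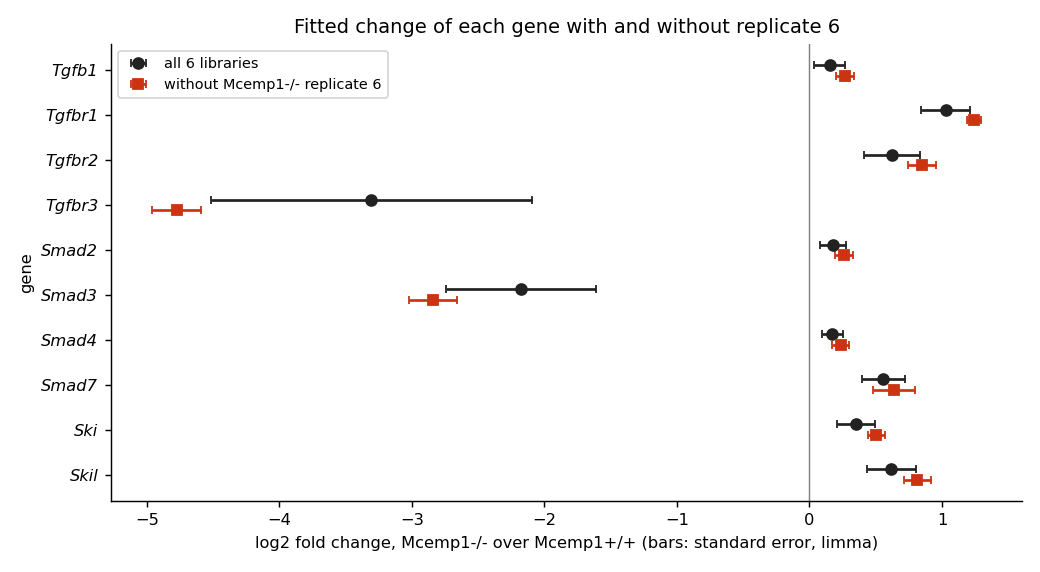
Fitted log2 fold changes of the 10 genes, *Mcemp1*-/- over *Mcemp1*+/+ PC, with all 6 libraries (black circles) and without *Mcemp1*-/- replicate 6 (red squares), bars giving the limma standard error. Leaving out replicate 6 moved every gene further from 0, for example *Tgfbr1* from 1.03 to 1.24 and *Smad3* from -2.18 to -2.84.

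How far the library labelled *Mcemp1*-/- replicate 6 lay from the *Mcemp1*+/+ mean differed from gene to gene. On a log2 scale with the *Mcemp1*+/+ mean at 0% and the mean of replicates 4 and 5 at 100%, it stood at 61.6% for *Smad7*, 48.3% for *Tgfbr1*, 27.9% for *Skil*, 26.0% for *Smad3*, 20.2% for *Tgfbr2*, 19.9% for *Smad4*, 8.5% for *Ski*, 5.4% for *Tgfbr3*, 1.9% for *Smad2* and -28.2% for *Tgfb1*, where it fell on the far side of the *Mcemp1*+/+ mean. *Mcemp1* itself was at 21.3%. Over the 465 genes at least 2-fold higher in replicates 4 and 5 the median was 29.5% (interquartile range 10.5% to 47.9%), and over the 1652 genes at least 2-fold lower it was 10.3%. *Tgfbr1* thus lay at the upper quartile of the higher genes, while among the lower genes *Smad3* was above the median and *Tgfbr3* below it.

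*Xist*, which marks cells with an inactive X chromosome, had 1297 normalized counts in replicate 3, 1481 in replicate 6 and fewer than 1 elsewhere, so the genotypes were also compared within each kind of library. Between replicates 3 and 6, *Tgfbr1* differed by 0.61 on the log2 scale, *Smad7* by 0.41 and *Smad3* by -0.74, whereas *Tgfbr2* differed by 0.03 and *Tgfbr3* by -0.13. Between replicates 1 and 2 and replicates 4 and 5, the differences were 1.24, 0.67 and -3.60 for *Tgfbr1*, *Smad7* and *Smad3*, 0.93 for *Tgfbr2* and -7.32 for *Tgfbr3*, the last from 2 libraries at 2.0 times their lowest value. All 10 genes had the same sign in both comparisons, as did 60.7% of all genes. The pair of replicates 3 and 6 has 1 library on each side and no replicate check. A fit on replicates 1, 2, 4 and 5 only was chosen after the values were seen. There the limma adjusted p of the 10 genes ran from 1.8e-04 to 0.051, the highest being that of *Smad4*. The share of all genes that passed in this fit is not given. Without replicate 6 alone it was 19.5% higher and 22.5% lower.

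Levels of different genes were compared per kb of exon. In *Mcemp1*+/+ PC the order was *Tgfb1* (84.9 ± 5.88 normalized counts per kb, SD, n = 3), *Tgfbr1* (48.9 ± 1.75), *Tgfbr2* (26.2 ± 2.81), *Ski* (16.9 ± 0.896), *Smad4* (11.8 ± 0.556), *Smad2* (8.61 ± 0.553), *Skil* (2.47 ± 0.149), *Tgfbr3* (2.40 ± 0.354), *Smad7* (2.02 ± 0.350) and *Smad3* (1.44 ± 0.155). Neighbours in this order overlapped between libraries only for *Skil* and *Tgfbr3* and for *Tgfbr3* and *Smad7*. In *Mcemp1*-/- replicates 4 and 5, *Tgfbr1* (mean 115.9 per kb) stood above *Tgfb1* (102.0), and *Tgfbr3* (0.0167) took the last place behind *Smad3* (0.127). The other genes kept their order. In replicate 6, *Tgfb1* (80.5) stayed above *Tgfbr1* (74.2), with *Smad3* (0.764) last.

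**Figure D3:**
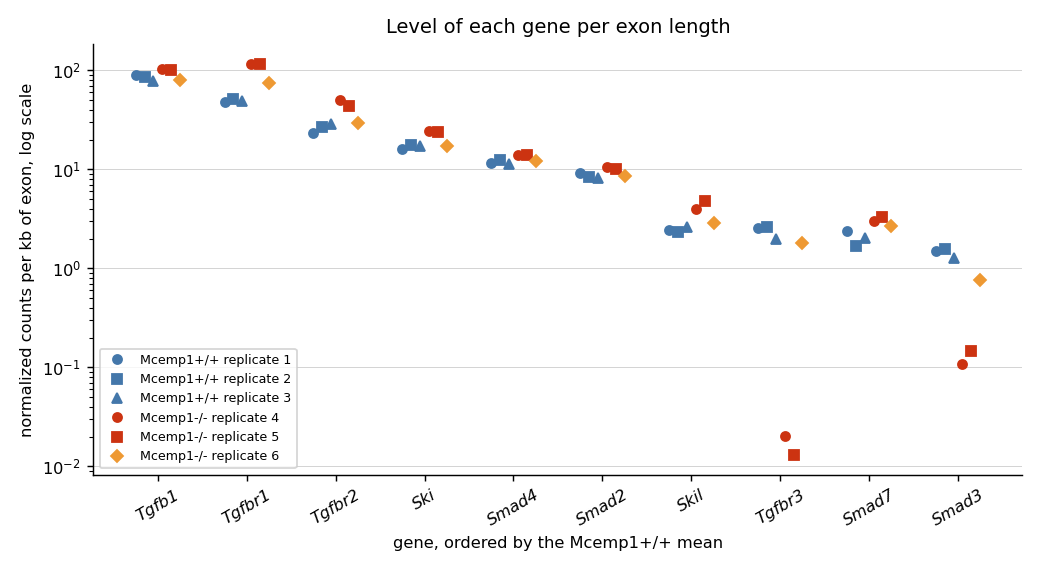
Normalized counts per kb of exon (log axis) of the 10 genes in the 6 libraries, ordered by the *Mcemp1*+/+ mean, 1 point per library. *Tgfb1* and *Tgfbr1* change places in *Mcemp1*-/- replicates 4 and 5, at 102.0 and 115.9 per kb, and *Tgfbr3* drops to 0.0205 and 0.0130 there.

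A ratio of 2 genes within a library does not depend on how libraries were scaled. The ratio of *Tgfbr1* to *Tgfbr2* was 1.63, 1.53 and 1.35 in *Mcemp1*+/+ PC and 1.82, 2.12 and 2.02 in *Mcemp1*-/- PC, without overlap, and replicate 6 stood with its group. On the log2 scale the means were 0.58 ± 0.14 and 0.99 ± 0.11 (SD, n = 3 each), a difference of 0.40 (two-sided exact permutation test, p = 0.1, the smallest that 3 against 3 allows). The type I receptor transcript was thus higher relative to the type II transcript in all 3 libraries labelled *Mcemp1*-/-. The ratio of *Smad3* to *Smad2* was 0.101, 0.120 and 0.0975 in *Mcemp1*+/+ PC and 0.00656, 0.00902 and 0.0559 in *Mcemp1*-/- PC, again without overlap. The log2 means were -3.24 ± 0.16 and -6.07 ± 1.67 (SD, n = 3 each), a difference of -2.83 (two-sided exact permutation test, p = 0.1). With a pseudocount of 2 CPM this difference was -1.68, since *Smad3* was low.

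**Figure D4:**
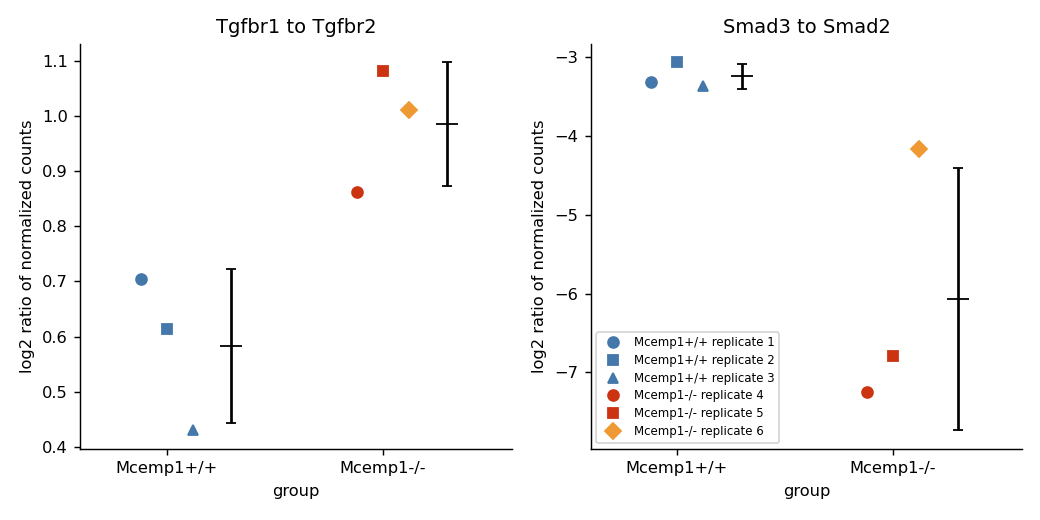
Log2 ratios of *Tgfbr1* to *Tgfbr2* (left) and of *Smad3* to *Smad2* (right) in each library, with the group mean and SD (n = 3) beside the points. Replicate 6 is at 1.01 in the first ratio, between replicates 4 and 5, and at -4.16 in the second, between them and the *Mcemp1*+/+ libraries.

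For each gene, the 2 genes (mean of at least 5) with the most similar pattern over the 6 libraries were found by Pearson's r of log2 values. This is a description of libraries that share their culture conditions. *Tgfbr1* was closest to *Hpgds*, the hematopoietic prostaglandin D synthase of mast cells, and *Rab8b* (r above 0.99 for both). *Hpgds* was 85.2, 90.2 and 85.0 in *Mcemp1*+/+ PC and 200, 208 and 129 in *Mcemp1*-/- PC. *Tgfbr3* was closest to *Phgdh*, an enzyme of serine synthesis, at 96.5, 88.4 and 70.6 against 1.27, 0.736 and 74.1, and to *Id1*. *Smad3* was closest to *Dtd1* and *Ly9*, *Tgfbr2* to *Pank2* and *Polr2i*, and *Tgfb1* to *S100a10* and *Ttc17*. The nearest genes were *Atp6v1g1* and *Ywhaz* for *Smad2*, *C2cd2l* and *Trim59* for *Smad4*, *Jrkl* and *BC004004* for *Smad7*, *Cdkn2c* and *Samd13* for *Ski*, and *Mastl* and *Fam172a* for *Skil*. Such likeness was common, since 697 of 9818 genes had r above 0.95 with *Tgfbr1* and 1056 with *Tgfbr3*, but 53 with *Smad7*.

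The wider pathway was read from 8 lists of 141 genes, of which 97 were tested. With limma, 0 passed over all genes. At an unadjusted p under 0.05, 18 were lower and 23 higher, against 13.8% and 11.6% of all genes. The groups did not overlap for 18 that were lower and 24 that were higher, against 14.8% of all genes each way. Their median log2 fold change was 0.03, against -0.01 over all genes, while that of the 10 genes above was 0.26. Without replicate 6, 24 were lower and 35 higher, against 22.5% and 19.5% of all genes.

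Among other receptors of the family (8 tested, with 3 lower and 1 higher without overlap), *Eng* and *Acvr1* differed in sign. *Eng*, which encodes endoglin, a co-receptor related to betaglycan, was 18.3, 15.8 and 10.9 in *Mcemp1*+/+ PC and 3.01, 2.85 and 4.56 in *Mcemp1*-/- PC. Unlike *Tgfbr3*, it was low in all 3 libraries labelled *Mcemp1*-/-, replicate 6 included (log2 fold change -1.96, SE 0.26, limma adjusted p = 0.097). The sum of the eosinophil markers was also low in all 3, and the part of such cells in the *Eng* result was not tested. *Acvr1*, a type I receptor of the BMP and activin side, was 11.7, 12.9 and 13.4 against 23.4, 23.6 and 14.1 (log2 fold change 0.63, adjusted p = 0.17). The more abundant *Bmpr2* and *Acvr1b* overlapped between groups, with log2 fold changes of 0.24 and 0.08.

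The BMP-side SMAD genes *Smad1* and *Smad5* had log2 fold changes of 0.48 and 0.24 (adjusted p = 0.17 and 0.26), and *Smad1* did not overlap, at 17.7, 20.997 and 19.1 against 30.5, 30.6 and 21.04, replicate 6 barely exceeding replicate 2. Of 6 other ligands tested, 1 was lower without overlap, and the most abundant, *Bmp7* and *Gdf11*, were at 0.40 and 0.36 on the log2 scale (adjusted p = 0.20 and 0.26). In the latency and activation list (8 tested, 1 lower and 1 higher without overlap), *Furin*, a protease that processes the TGF-β precursor, was 1059, 970 and 1013 in *Mcemp1*+/+ PC and 1740, 1783 and 1020 in *Mcemp1*-/- PC. *Thbs1*, whose product thrombospondin can activate latent TGF-β, was 2252, 1448 and 1814 against 3.82, 0.340 and 1713. Replicate 6 sat within the *Mcemp1*+/+ range for both, as it did for the macrophage and neutrophil precursor marker sums, whose part in the *Thbs1* result was not tested.

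Of 22 turnover and adaptor genes, 3 were lower and 6 higher without overlap. *Nedd4l*, a ubiquitin ligase that acts on SMADs and the type I receptor, was 2.88, 4.54 and 2.70 in *Mcemp1*+/+ PC and 8.65, 7.85 and 5.91 in *Mcemp1*-/- PC (log2 fold change 1.06, SE 0.24, adjusted p = 0.15). Replicate 6 stood above all *Mcemp1*+/+ libraries. The ligase *Itch* and the endosomal adaptor *Zfyve16* had log2 fold changes of 0.34 and 0.47 (adjusted p = 0.16 and 0.15), the endocytic adaptor *Dab2* had -3.17 (adjusted p = 0.17), and *Sptbn1* had 0.00 (adjusted p = 0.99).

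Of 22 SMAD cofactors tested, 4 were lower and 6 higher without overlap. The AP-1 gene *Junb* was 42.8, 50.1 and 42.4 in *Mcemp1*+/+ PC and 159, 140 and 101 in *Mcemp1*-/- PC (log2 fold change 1.53, limma adjusted p = 0.085). *Jun* was at 2.0 (adjusted p = 0.11) and *Fos* at 1.72 (adjusted p = 0.15), and none of the 3 overlapped between groups. The co-repressor *Tgif1*, which binds SMAD2 and SMAD3, was 11.9, 15.7 and 11.4 against 1.54, 1.49 and 8.14 (log2 fold change -2.04, adjusted p = 0.15), a pattern like that of *Smad3*. The more abundant *Ncor1* and *Runx1* had log2 fold changes of -0.12 and 0.47 (adjusted p = 0.44 and 0.16). Of 15 genes of SMAD-independent signaling, 4 were lower and 4 higher without overlap. *Map3k7*, the kinase TAK1, and its partner *Tab2* had log2 fold changes of 0.48 and 0.29, *Rhoa* had 0.18, and the kinases *Mapk8* (JNK1) and *Mapk14* (p38α) had -0.67 and -0.43 (adjusted p = 0.15 to 0.16 for all 5).

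Of 17 TGF-β target genes tested, 3 were lower and 6 higher without overlap (14.8% of all genes each way), and none passed with limma. *Mcpt1*, the chymase of mucosal mast cells, was 9.62, 9.88 and 4.67 in *Mcemp1*+/+ PC and 143, 119 and 32.8 in *Mcemp1*-/- PC. *Mcpt2* was 33.7, 35.6 and 19.997 against 375, 304 and 112. Both proteases were higher in all 3 libraries labelled *Mcemp1*-/-, with replicate 6 intermediate at 51.4% and 55.2% of the way to replicates 4 and 5, close to *Tgfbr1*. Their log2 fold changes were 3.35 (SE 0.61, adjusted p = 0.14) and 3.0 (SE 0.49, adjusted p = 0.11), and without replicate 6 they were 4.01 (adjusted p = 3.0e-04) and 3.53 (adjusted p = 2.3e-04). The summed level of 18 mast cell markers, from a list that does not hold these proteases, was 28134 to 29442 over *Mcemp1*+/+ PC, 52759 and 54027 for replicates 4 and 5 and 29970 for replicate 6. *Cpa3* alone made up 49.3% to 51.5% of this sum. Of the 18 markers, 11 were higher and 1 lower without overlap. The lower one, *Hdc*, was 146, 143 and 117 in *Mcemp1*+/+ PC and 86.8, 92.8 and 62.5 in *Mcemp1*-/- PC (also named after its values were seen). Gene by gene, replicate 6 was above the *Mcemp1*+/+ range for 11 of the 18 markers and below it for 4, and its position was 3.9% for *Cpa3*, 8.3% for *Kit*, 38.6% for *Ms4a2* and 63.7% for *Mitf* (markers named after their values were seen), with a median of 12.6% over the 18. Some mast cell markers therefore had replicate 6 as far along as *Tgfbr1* and the proteases, and the part of the mast cell share in these results was not tested.

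The inhibitor of DNA binding genes *Id1* and *Id2* differed in sign. *Id1* was 18.3, 19.0 and 16.1 in *Mcemp1*+/+ PC and 0.201, 0.170 and 13.9 in *Mcemp1*-/- PC (log2 fold change -3.30, adjusted p = 0.18). *Id2* was 253, 245 and 252 against 463, 493 and 329 (log2 fold change 0.76, adjusted p = 0.15). *Id1* thus followed *Tgfbr3*, with replicate 6 close to *Mcemp1*+/+ PC, and *Id2* separated all 3 libraries. *Bhlhe40*, the other abundant target, overlapped between groups (log2 fold change 0.21, adjusted p = 0.65). Among the other targets, *Tgfbi*, named after its values were seen, overlapped between groups, at -3.09 on the log2 scale (adjusted p = 0.23).

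**Figure D5:**
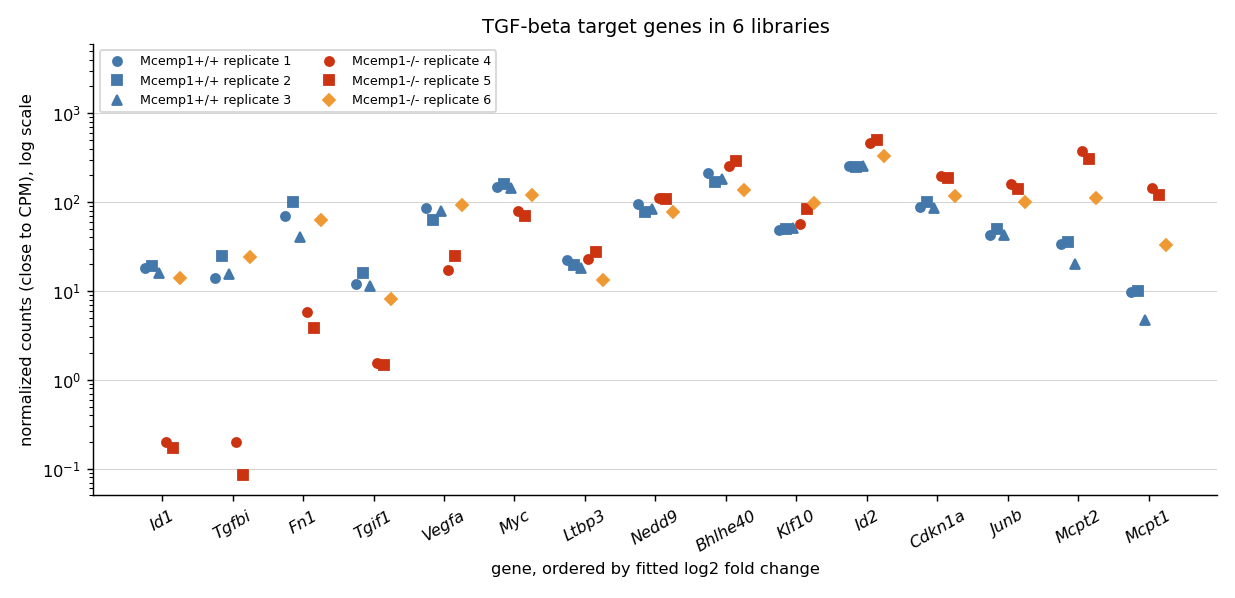
Normalized counts (log axis) of the 15 TGF-β target genes with a mean of at least 5 in the higher group in the 6 libraries, ordered by fitted log2 fold change from *Id1* (-3.30) to *Mcpt1* (3.35), 1 point per library. *Mcpt1* and *Mcpt2* have replicate 6 (32.8 and 112) between the other *Mcemp1*-/- libraries and *Mcemp1*+/+ PC, whereas for *Id1* replicate 6 (13.9) lies near *Mcemp1*+/+ PC.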

How the data were processed

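Peritoneal cells of C57BL/6 mice were the source of 6 libraries, which the authors made with the KAPA mRNA HyperPrep kit, sequenced on an Illumina NextSeq and processed in Partek Flow, and whose submitters' processing notes name mm10. Each deposited value is a normalized count of 1 gene in 1 library, a signal whose scale is near that of CPM. Not given in the sources used here are the aligner, annotation, normalization method, strand setting and any filter. Exon lengths were taken from GENCODE vM21, with which 16872 gene starts (97.4%) coincide. No value is 0, and 39.7% to 50.5% of low values are whole multiples (within 0.01, up to 20) of the library's lowest value, so whole reads could not be recovered for nearly all genes and a count model was not used. Among the 10 members, 4 (*Smad3*, *Smad4*, *Smad7* and *Skil*) were on whole multiples in all 6 libraries. If that lowest value stands for 1 read, depth was 14.8 to 23.6 M reads, and no counting interval is given.

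Groups were taken from the sample titles. The library names end in S3, S5 and S2 for replicates 1, 2 and 3 and in S4, S5 and S4 for replicates 4, 5 and 6. What these repeated numbers stand for is not given. Genes with a mean of at least 1 (13413) entered a fit in limma 3.58.1 (R 4.3.3; lmFit, eBayes with trend) after log2 transformation with 0.479 added (0.5 CPM for the mean library), with Benjamini-Hochberg adjustment over all genes at a threshold of 0.05. Ratios were tested with an exact permutation test written in Python 3.11.15, and figures drawn with matplotlib 3.10.9. The test was checked on simulated data. The members and lists were chosen with earlier results of these data known. Besides the 10 members and *Mcemp1*, the named genes are, per list, up to 4 with the largest change among those without overlap (mean of at least 5 in the higher group), the 2 most abundant, and the 2 nearest patterns of each member (leaving out Gm and Rik symbols). *Kit*, *Elane*, *Ctsg*, *Cd163*, *Lyz2* and *Xist* describe the libraries and were named after their values were seen. As alternatives, the pseudocount was set to 0.1 or 2 CPM, the minimum mean to 5 or removed, median-of-ratios scaling was applied, the trend was dropped, and each library was left out in turn. Replicates 1, 2, 4 and 5 alone were added after seeing the data. Promoters were read from RefSeq, and only the 250 bases before each start were scanned. A result for 1 further target gene is not reported here, and the gene stays in every count.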

Additional observations from a re-analysis of the deposited data

How the results depend on the processing

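Of the fitted changes of the 10 genes, 109 of 109 values in 11 alternatives (pseudocount, filter, scaling, trend, and each library but replicate 6 left out) kept their direction and stayed above the threshold (adjusted p = 0.13 to 0.72), *Smad3* being left out by the minimum mean of 5. Without the library labelled *Mcemp1*-/- replicate 6, the called members went from 0 to 2 lower and from 0 to 8 higher, and the called genes of the pathway lists from 0 to 24 lower and from 0 to 35 higher. Over each library left out, called members ranged from 0 to 2 lower and 0 to 8 higher, and members without overlap from 4 to 8 higher, with 2 lower throughout. Over all genes, 8 were lower with limma and 5 with a pseudocount of 2 CPM, and the range over each library left out was 0 to 3019 lower and 0 to 2621 higher. Without replicate 1, 2 or 3 these counts were 2, 2 and 0 lower and 1 higher each, without replicate 4 or 5 they were 0 in both directions, and both maxima came without replicate 6. The difference in the *Tgfbr1* to *Tgfbr2* ratio ranged from 0.33 to 0.46 and that of *Smad3* to *Smad2* from -3.78 to -2.23. The cause of these shifts was not tested. Scaling by median of ratios moved the median of all genes from -0.01 to 0.00. No paired analysis was possible because the groups share no replicate number. The fold of *Tgfbr3* depends on the pseudocount, since replicates 4 and 5 were at 2.0 times their lowest value.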
